A study of Mus musculus with 4 samples.

Results

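The 10 genes described here encode secreted proteins of transforming growth factor beta (TGF-β) and bone morphogenetic protein (BMP) signaling in the mouse heart at postnatal day 7 (P7). They are the TGF-β isoforms *Tgfb1*, *Tgfb2* and *Tgfb3*, the BMPs *Bmp2*, *Bmp4*, *Bmp6* and *Bmp7*, the activin subunit gene *Inhba*, the distant family member *Gdf15*, and *Fst*, which encodes the activin antagonist follistatin. They were taken by name, as a set chosen with earlier results of these data known, from 24454 genes in a table of RNA-seq read counts, and 10 of 10 were found through their Entrez Gene identifiers. *Inhba* was the gene among them whose mRNA rose in miR-128OE hearts, by 1.46-fold at an adjusted p under 0.05. None of the TGF-β isoforms or BMPs passed the same test. The called share of the 10 genes was 10%, against 31.5% of all tested genes. The *Inhba* call was lost with total-count scaling, in DESeq2's Wald test and in most fits with 1 library left out. By *Xist* counts, condition and sex cannot be told apart in these libraries. In the rest of the pathway, 16 of 84 tested genes were higher and 6 lower (26.2%, against 31.5% of all tested genes). Among those higher were the inhibitory SMAD gene *Smad7*, the BMP antagonist gene *Nbl1* and the response genes *Ctgf* and *Acta2*. The BMP receptor gene *Bmpr2* was also higher, but not without WH9. The activin receptor gene *Acvr2b* was among those lower. Of 17 TGF-β response genes, 13 did not pass, collagen genes among them.

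Whole-heart RNA from 2 Ctrl libraries (WH7 and WH8) was compared with RNA from 2 miR-128OE libraries (WH9 and WH10), in mice on the C57BL/6 background. Ctrl mice carried the tetracycline-responsive transgene alone (miR-128TetRE). miR-128OE mice carried it together with α-MHC-tTA, in which the α-myosin heavy chain promoter drives the Tet-off transactivator tTA in cardiomyocytes (CMs). The Ctrl hearts lacked tTA, so effects of tTA and of *miR-128* cannot be told apart here. The doxycycline status of these hearts and the number of animals behind each library were not given in the sources used here. Nothing states that the libraries of a group came from separate animals, so p-values measure the spread between these libraries, which may be technical.

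Ligands of this family bind pairs of type I and type II receptor kinases, which phosphorylate SMAD transcription factors. TGF-β and activin ligands act mainly through *Smad2* and *Smad3*, BMPs through *Smad1*, *Smad5* and *Smad9*, and *Smad4* is the partner that both branches share. *Smad6* and *Smad7* inhibit the pathway and are themselves induced by it. In the heart, TGF-β isoforms are known for their part in valve and septum formation and in fibroblast activation, and BMPs for their part in the specification of CMs and in the endocardial cushions. TGF-β is secreted in a latent complex, so that its mRNA level is not a measure of active ligand.

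*miR-128* was the overexpressed RNA, and its seed matches in these genes are shown first as a description of sequence. The mature sequence below is from RefSeq (GRCm38.p6), and its seed, bases 2 to 8, is in capitals. Its genes are *Mir128-1* (chr1:128202404-128202424, plus strand) and *Mir128-2* (chr9:112118644-112118664, minus strand).
mmu-miR-128-3p: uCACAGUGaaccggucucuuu
Within 3′UTRs, taken as the longest that GENCODE M21 (GRCm38) annotates for a gene, the letters CACTGTG or ACTGTGA were searched on the transcript strand, and these motifs overlap in the 8-base form CACTGTGA. *Tgfb3* and *Bmp2* each held 1 match, shown in capitals with 10 flanking bases on each side.
Tgfb3 site: ctttgagaatCACTGTGgtaaagaaag
Bmp2 site: aattaggaaaACTGTGActatgtcagg
The *Tgfb3* match lies in exon 7 on the minus strand (chr12:86057602-86057608), at base 172 of a 3′UTR of 1035 bases. The *Bmp2* match lies in exon 3 on the plus strand (chr2:133562468-133562474), at base 753 of 1170. The other 8 genes held neither motif in these 3′UTRs, *Inhba* with its 3′UTR of 4492 bases among them. A match was thus found in 20% of the 10 genes, whereas 31.0% of the 13463 tested genes with an annotated 3′UTR held at least 1. A match is a description of letters and not of binding.

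Library totals ranged from 8096870 counts (WH8) to 14359838 counts (WH10), so the values of WH8 rest on the fewest reads. Mature *miR-128* was not measured in these libraries. On the *Mir128-2* precursor gene, reads numbered 0 and 0 in Ctrl and 2 and 10 in miR-128OE hearts, and *Mir128-1* had 0 in each library. *Xist*, the RNA of the silenced X chromosome in females, was counted 14543 and 11339 times in WH7 and WH8 but 94 and 132 times in WH9 and WH10. Condition and sex therefore cannot be told apart. The libraries also differed in their sums of cell type markers. The summed normalized counts of 6 atrial markers were 70039 in WH7 and 8853 in WH8, with 25530 and 32608 in WH9 and WH10, and those of 6 fibroblast markers were 47506, 30855, 40030 and 42436. Sums over 7 CM markers were 452659 and 485165 in Ctrl and 570442 and 562378 in miR-128OE hearts. Single CM markers went both ways in the edgeR test described below. There 3 were higher, *Ryr2* was lower (log2 fold change −0.40, edgeR adjusted p = 0.00655), and *Tnnt2*, *Tnni3* and *Myl2* did not pass. Sums over 6 smooth muscle and pericyte markers were 22108 and 20546 against 26416 and 30227. Without *Acta2*, a step added after the data were seen, the other 5 of these summed to 14726 and 13731 in Ctrl and 13935 and 15474 in miR-128OE hearts, which overlap. Sums of brown fat and erythroid markers were also higher in both miR-128OE libraries (393.2 and 395.7 against 841.6 and 643.4, and 512.1 and 360.4 against 893.1 and 829.3). Of 4 tested brown fat markers 3 were higher, and *Cidea* made up most of the Ctrl sums (307 and 353). The erythroid sums were mostly *Alas2* (445 and 304 against 823 and 756). *Slc4a1* did not pass (log2 fold change 0.21, edgeR adjusted p = 0.521), and *Hba-a1* and *Hbb-bs* were at 0 in each library. In whole-heart RNA, fewer cells of a type and less RNA per cell cannot be told apart, and the part of these lists in the values below was not tested.

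Levels were compared between genes as reads scaled to exon length and to library size (RPKM), with library sizes corrected by TMM, the trimmed mean normalization of edgeR. Exon length was the union of all annotated exons of a gene, which can exceed its main mRNA, so the order of genes depends on it. It was 5042 bases for *Tgfb1* and 3383 for *Tgfb3*. In counts scaled to library size alone, *Tgfb1* was above *Tgfb3* in each library. *Tgfb3* had the highest level, at a mean of 11.3 RPKM over the 4 libraries, with 13.2 and 9.96 in Ctrl and 11.4 and 10.6 in miR-128OE hearts. Its lowest library was above the highest library of *Tgfb1*, which had a mean of 9.38 RPKM. *Tgfb1*, *Bmp4* (9.05 RPKM), *Tgfb2* (7.65 RPKM) and *Bmp6* (5.54 RPKM) followed with ranges that overlapped from each gene to the next. A gap then separated *Bmp6*, at 3.998 RPKM in its lowest library, from *Bmp2*, at 2.29 RPKM in its highest. *Bmp2* (2.03 RPKM), *Inhba* (1.92 RPKM), *Bmp7* (1.66 RPKM), *Gdf15* (0.964 RPKM) and *Fst* (0.587 RPKM) made up the lower part of the order, again with overlapping ranges between neighbors. The same 5 genes were above 3 RPKM in each of the libraries.

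**Figure D1:**
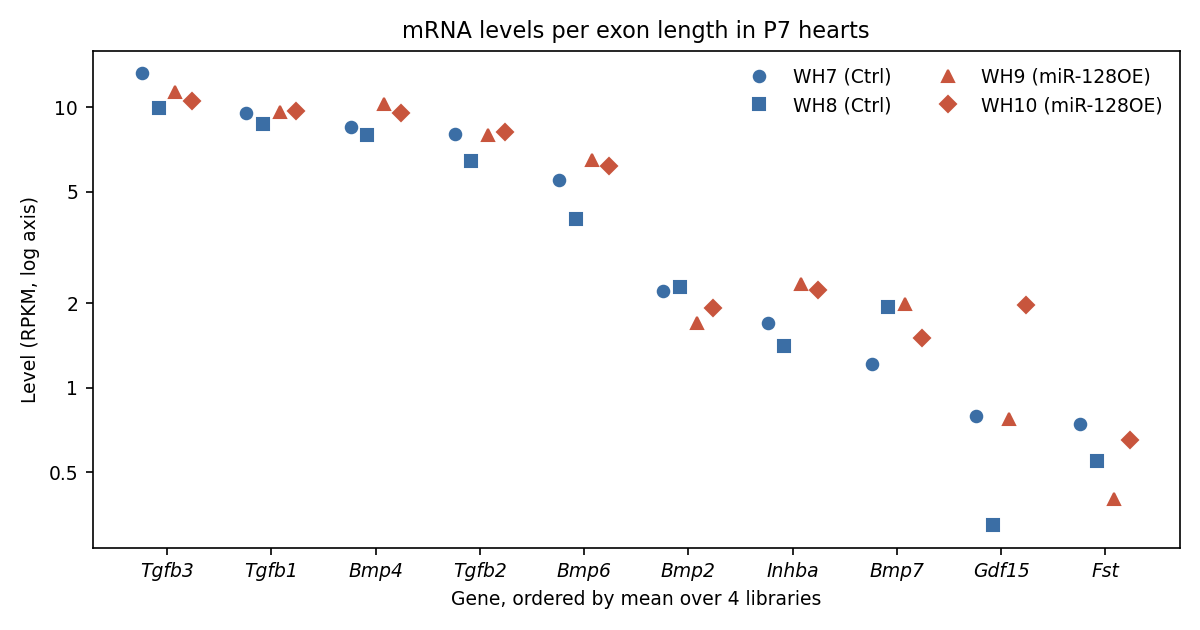
Level of each gene in RPKM on a log axis, with 1 point per library (blue, Ctrl WH7 and WH8; red, miR-128OE WH9 and WH10) and genes ordered by their mean over the 4 libraries. *Tgfb3*, *Tgfb1*, *Bmp4*, *Tgfb2* and *Bmp6* lie above the other 5 genes in each library, and both red points of *Inhba* lie above both blue points.

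Changes between the conditions were tested gene by gene over 14266 genes with the quasi-likelihood test of edgeR. Every edgeR adjusted p below is from this test, after Benjamini-Hochberg adjustment over those genes, and normalized counts below are counts scaled to a common library size. Of the 10 genes, 1 was higher and 0 were lower at an adjusted p under 0.05 (10%), against 31.5% of all tested genes, of which 16.5% were higher and 15.0% lower. At an unadjusted p under 0.05, 2 were higher in edgeR, *Inhba* and *Bmp6*, and 0 lower, and DESeq2's Wald test called 0 in either direction after adjustment. The groups did not overlap for 5 of the 10 genes (4 above and 1 below), whereas 68.1% of all tested genes showed no overlap. The median log2 fold change of the 10 genes was 0.16 and that of all tested genes −0.01. The log2 fold change was positive for 7 genes and negative for 3, with *Tgfb1* turning negative when libraries were scaled to their total counts.

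The TGF-β isoforms were at similar levels in both conditions. *Tgfb1* (chr7:25687002-25705077), the isoform best known from immune cells and fibroblasts, had 567 and 517 normalized counts in Ctrl and 569 and 574 in miR-128OE hearts. Its log2 fold change was 0.07 with a 95% interval from −0.14 to 0.29 (edgeR adjusted p = 0.588). Both miR-128OE libraries were above both Ctrl libraries, by less than the distance between the Ctrl libraries. *Tgfb2* (chr1:186622787-186709697), the isoform known for its part in endocardial cushion formation, had 550 and 440 normalized counts in Ctrl and 544 and 556 in miR-128OE hearts. The groups overlapped, and its log2 fold change was 0.14 (95% interval −0.12 to 0.41, edgeR adjusted p = 0.381). Without WH7 it was 0.32 (edgeR adjusted p = 0.0363), so that the 1 Ctrl library left, WH8, sets this value. *Tgfb3* (chr12:86056743-86079041), the isoform with a *miR-128* seed match, had 527 and 397 normalized counts in Ctrl and 452 and 421 in miR-128OE hearts. Both miR-128OE libraries lay between the Ctrl libraries, and the log2 fold change was −0.09 (95% interval −0.40 to 0.21, edgeR adjusted p = 0.627). Its sign depended on 1 library, since it was 0.14 without WH7.

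As shares of the summed RPKM of the 3 isoforms, *Tgfb3* made up 42.9% and 39.7% in Ctrl and 39.3% and 37.2% in miR-128OE hearts. *Tgfb1* made up 31.0% and 34.7% against 33.2% and 34.1%. *Tgfb2* made up 26.1% and 25.7% against 27.6% and 28.7%. The order *Tgfb3*, *Tgfb1*, *Tgfb2* of these shares was the same in each library. It rests on the exon lengths used, since in normalized counts *Tgfb1* was the highest and *Tgfb3* the lowest isoform in each library. The summed level of the isoforms was 30.8 and 25.1 RPKM in Ctrl and 28.9 and 28.4 RPKM in miR-128OE hearts, so that the miR-128OE values lay between the Ctrl values.

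Among the BMPs, *Bmp4* and *Bmp6* were above Ctrl in both miR-128OE libraries and *Bmp2* was below, but none passed the test. *Bmp4* (chr14:46383525-46390669), a ligand of cardiac mesoderm and outflow tract, had 225 and 211 normalized counts in Ctrl and 271 and 252 in miR-128OE hearts. Its log2 fold change was 0.26 (95% interval −0.02 to 0.54, edgeR adjusted p = 0.146). *Bmp6* (chr13:38345716-38500314), an endothelial ligand that controls hepcidin in iron metabolism, had 252 and 184 normalized counts in Ctrl and 299 and 283 in miR-128OE hearts. Its log2 fold change was 0.40, and the 95% interval of 0.05 to 0.75, which is not adjusted for the number of genes, did not reach 0 (edgeR adjusted p = 0.0809). The *Bmp6* call turned on the settings, since its adjusted p was 0.0181 in the edgeR test without a filter on low counts and 0.00437 without WH7, where the log2 fold change was 0.66. The spread of *Bmp6* lay in the Ctrl group, in which WH8 was well below WH7.

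*Bmp2* (chr2:133552159-133562896), a ligand of the atrioventricular cushions and the other gene with a seed match, had 92.4 and 96.1 normalized counts in Ctrl and 71.3 and 80.7 in miR-128OE hearts. It was the only 1 of the 10 genes with both miR-128OE libraries below both Ctrl libraries, with a log2 fold change of −0.30 (95% interval −0.76 to 0.15, edgeR adjusted p = 0.284). *Bmp7* (chr2:172868012-172940321), which shares receptors with *Bmp6*, had 57.6 and 91.9 normalized counts in Ctrl and 94.1 and 71.5 in miR-128OE hearts. The groups overlapped, with a log2 fold change of 0.17 (95% interval −0.44 to 0.79, edgeR adjusted p = 0.66). The interval of *Bmp7* was more than 2 times as wide as that of *Bmp4*, and its sign changed when 1 library was left out.

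In the summed RPKM of these 4 BMPs, *Bmp4* held 48.8% and 49.1% in Ctrl and 50.1% and 49.8% in miR-128OE hearts. *Bmp6* held 31.6% and 24.7% against 31.8% and 32.2%. *Bmp2* held 12.7% and 14.2% against 8.33% and 10.1%, with both miR-128OE libraries below both Ctrl libraries, and *Bmp7* held 6.99% and 12.0% against 9.72% and 7.89%. The share of *Bmp4* was the steadiest over the libraries. Summed BMP levels were 17.4 and 16.2 RPKM in Ctrl and 20.4 and 19.1 RPKM in miR-128OE hearts, without overlap between the groups. Single genes showed no overlap in 68.1% of all tested cases, and *Bmp4* and *Bmp6*, the largest parts of the sum, did not pass.

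*Inhba* (Entrez Gene 16323, chr13:16004256-16031609) encodes the βA subunit, which pairs with itself to form activin A and with the α subunit to form inhibin A. Its raw counts were 140 in WH7, 75 in WH8, 178 in WH9 and 200 in WH10. Scaled to a common library size these were 128 and 106 normalized counts in Ctrl (mean 117 ± 15.6, SD, n = 2) and 176 and 168 in miR-128OE hearts (mean 172 ± 5.67, SD, n = 2). Both miR-128OE libraries were above both Ctrl libraries, and the distance between the groups was larger than that within them. The log2 fold change was 0.54 (SE 0.16, 95% interval 0.17 to 0.91, edgeR adjusted p = 0.032). The call was lost in the edgeR test with total-count scaling (log2 fold change 0.44, adjusted p = 0.0682), in DESeq2's Wald test (0.55, adjusted p = 0.114), and in the edgeR test without WH8 (0.43, adjusted p = 0.0746), WH9 (0.53, adjusted p = 0.169) or WH10 (0.60, adjusted p = 0.108). It was kept without WH7 (0.70, edgeR adjusted p = 0.0137), and the log2 fold change was positive in each of these settings.

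The activin antagonist genes *Fst* and *Fstl3* and the subunit genes *Inha* and *Inhbb* did not pass the test, and the subunit genes *Inhbc* and *Inhbe* were too low to test. *Fst* (chr13:114452262-114458989), whose product binds activin A and blocks its receptor contact, had 40.2 and 29.7 normalized counts in Ctrl and 21.8 and 35.3 in miR-128OE hearts. The groups overlapped, with a log2 fold change of −0.30 (95% interval −1.09 to 0.49, edgeR adjusted p = 0.546), and at 21 to 44 raw counts its interval was wide. *Fstl3*, a follistatin-like inhibitor of activin and myostatin, had 28.3 and 7.07 against 16.8 and 37.0 normalized counts (log2 fold change 0.51, edgeR adjusted p = 0.525). *Inha*, the gene of the inhibin α subunit, had 185 and 143 normalized counts in Ctrl and 212 and 238 in miR-128OE hearts, and its log2 fold change of 0.44 did not pass (edgeR adjusted p = 0.062). That outcome turned on the settings, since *Inha* passed without a filter on low counts (adjusted p = 0.0163), in edgeR's exact test (0.0359) and likelihood ratio test (0.0373), and without WH7 (log2 fold change 0.66, edgeR adjusted p = 0.0105). *Inhbb*, which encodes the βB subunit, had 34.8 and 28.3 against 24.8 and 22.7 normalized counts (log2 fold change −0.43, edgeR adjusted p = 0.353).

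Among activin receptors, *Acvr2b*, a type II receptor of activin and myostatin, fell. It had 311 and 321 normalized counts in Ctrl and 184 and 189 in miR-128OE hearts, with a log2 fold change of −0.76 (SE 0.12, edgeR adjusted p = 0.00183). The groups were far apart relative to the spread within them, and the call was kept in each setting and with each library left out. The related type II receptor gene *Acvr2a* had 276 and 310 against 347 and 327 normalized counts and did not pass (log2 fold change 0.21, edgeR adjusted p = 0.21). The type I receptor gene *Acvr1b* had 150 and 254 against 204 and 190 normalized counts (log2 fold change −0.0069), and *Acvr1c* had at most 7 raw counts and was too low to test. The co-receptor *Tgfbr3*, which also binds inhibin, had a log2 fold change of −0.29 (edgeR adjusted p = 0.101), which passed with total counts (−0.39, 0.0348) and was −0.45 without WH9 and −0.12 without WH10. The log2 fold changes of the signal transducers were −0.05 for *Smad2*, −0.10 for *Smad3* and −0.07 for *Smad4*, and none of them passed. The sign for *Acvr1b* and *Smad2* turned with a correction for GC and length of the genes, and those for both genes and *Fstl3* turned when 1 library was left out.

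*Gdf15* (chr8:70629393-70632470), a hormone-like stress factor whose receptor GFRAL is known from the hindbrain, had the largest fold change of the 10 genes and the widest interval. Its raw counts were 19 and 5 in Ctrl and 17 and 51 in miR-128OE hearts. As normalized counts they were 17.4 and 7.07 against 16.8 and 42.9. WH10 stood above the other libraries and WH9 was just below WH7, so the groups overlapped. The log2 fold change was 1.21 (SE 0.55, 95% interval −0.02 to 2.45, edgeR adjusted p = 0.122). It was 0.39 without WH10 and 2.09 without WH7, and the adjusted p was 0.0199 in the edgeR test without a filter on low counts. Of 10 stress response genes listed with *Gdf15*, 8 were tested, and 25% of them were called, against 31.5% of all tested genes. At an unadjusted p under 0.05 in edgeR there were 2 in each direction, and DESeq2's Wald test called 2 higher and 0 lower. In edgeR 2 were higher and 0 lower after adjustment (median log2 fold change −0.0060). These were *Atf3*, a stress-induced transcription factor gene (123 and 107 against 186 and 215 normalized counts, log2 fold change 0.79), and *Cdkn1a*, the p21 cell cycle inhibitor gene (614 and 659 against 843 and 858, log2 fold change 0.42). Leaving out WH10 took the call of *Atf3* away (edgeR adjusted p = 0.0612), and leaving out WH9 or WH10 did so for *Cdkn1a* (0.0578 and 0.0585). *Atf4* and *Ddit3*, transcription factor genes of the integrated stress response, had log2 fold changes of −0.17 and −0.29 and did not pass.

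**Figure D2:**
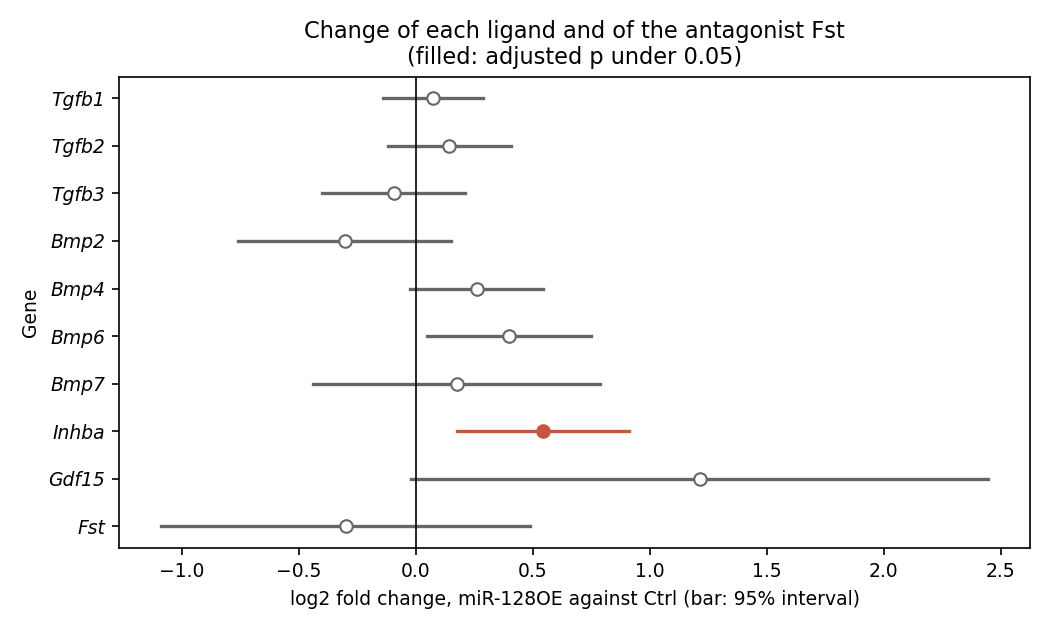
Log2 fold change of each of the 10 genes in miR-128OE against Ctrl hearts (points) with its 95% interval (bars) from edgeR's quasi-likelihood fit. The filled red point, *Inhba*, has an adjusted p under 0.05, and the interval of *Gdf15* spans from −0.02 to 2.45.

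The 7 lists for the rest of the pathway held 106 genes, of which 84 passed the filter on low counts. Of these, 16 were higher and 6 were lower (26.2%, against 31.5% of all tested genes), with a median log2 fold change of 0.13. The split depended on scaling. With total counts it was 11 higher and 10 lower, and over all genes the higher share of the called genes was 52.3% in the main scaling and 35.4% with total counts. *Smad7* stood in 3 lists, and *Smad6*, *Smad9*, *Skil*, *Bambi* and *Nog* each in 2.

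Of 24 other ligands of the family, 13 were too low to test. In edgeR 0 of the other 11 passed in either direction, against 31.5% of all tested genes, and DESeq2's Wald test also called 0. At an unadjusted p under 0.05 in edgeR there was 1 (*Inha*). *Bmp10*, a ligand of atrial CMs, had raw counts of 50 and 2 (Ctrl) and of 4 and 119 (miR-128OE), so that libraries of 1 condition differed far more than the conditions did (log2 fold change 0.98, edgeR adjusted p = 0.496). WH7 also had the highest sum of atrial markers, a list that includes *Bmp10*, although WH10 exceeded it in *Bmp10* itself.

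Among 13 tested receptors and co-receptors, 3 were higher and 1, *Acvr2b*, was lower (median log2 fold change 0.22). The called share was 30.8%, against 31.5% of all tested genes. *Rgmb*, a BMP co-receptor, had 124 and 133 normalized counts in Ctrl and 213 and 208 in miR-128OE hearts (log2 fold change 0.71, SE 0.14). *Bmpr2*, the main type II receptor of BMPs, had 876 and 704 against 1132 and 1131 normalized counts (log2 fold change 0.51, SE 0.11). *Eng*, the endothelial co-receptor endoglin, had 3266 and 2642 against 3615 and 3680 normalized counts, and with a log2 fold change of 0.30 it passed narrowly (edgeR adjusted p = 0.04996). The *Eng* call was lost with total-count scaling (edgeR adjusted p = 0.17), with upper-quartile scaling (0.0982) and with a count minimum of 50 (0.0601). It was also lost without WH8 (log2 fold change 0.16, edgeR adjusted p = 0.12), WH9 (0.194) or WH10 (0.2). Without WH9, *Rgmb* and *Bmpr2* also missed the threshold (edgeR adjusted p = 0.0532 and 0.0572). The TGF-β receptor genes *Tgfbr1* and *Tgfbr2* had log2 fold changes of −0.17 and 0.23 and did not pass.

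Of 13 SMADs and SMAD regulators, 4 were higher and 0 were lower (median log2 fold change 0.04). The called share was 30.8%, against 31.5% of all tested genes. At an unadjusted p under 0.05 in edgeR 5 were higher and 1 lower, and DESeq2's Wald test called 2 and 0. The 4 higher genes encode inhibitors of the pathway, as do *Skil*, *Smurf1* and *Bambi* on the same list, which did not pass. *Smurf1* went the other way, with both miR-128OE libraries below both Ctrl libraries (log2 fold change −0.20, edgeR adjusted p = 0.144). *Bambi* had a log2 fold change of 0.18 (edgeR adjusted p = 0.311). *Smad7*, an inhibitory SMAD that acts on TGF-β, activin and BMP receptors, had 338 and 304 normalized counts in Ctrl and 559 and 569 in miR-128OE hearts. Its log2 fold change was 0.81 (SE 0.10, edgeR adjusted p = 0.00063), and the call was kept in each setting and with each library left out. *Smad6*, which inhibits mainly BMP signals, had 256 and 199 against 310 and 337 normalized counts (log2 fold change 0.49, SE 0.14). *Ski*, a corepressor of SMADs (log2 fold change 0.37), and *Smurf2*, a ubiquitin ligase that targets receptors and SMADs (0.28), also rose. The calls of *Ski*, *Smurf2* and *Smad6* were lost without WH9 (edgeR adjusted p = 0.0821, 0.17 and 0.094) and without WH10 (0.0927, 0.146 and 0.155), and *Smad6* also without WH8 (0.0608). With total counts the calls of *Smurf2* and *Smad6* were lost as well (edgeR adjusted p = 0.117 and 0.0691), as they were in DESeq2's Wald test (0.11 and 0.0605), and *Smurf2* missed the threshold with upper-quartile scaling (0.0528). *Skil*, the paralog of *Ski*, missed the threshold (log2 fold change 0.39, edgeR adjusted p = 0.0515). The receptor-regulated *Smad1* and *Smad5* had log2 fold changes of 0.04 and −0.06, and neither passed.

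Of 10 tested extracellular antagonists, 2 rose and 1 fell (30%, against 31.5% of all tested genes, median log2 fold change 0.20). *Nbl1*, a BMP antagonist of the DAN family, had 223 and 199 normalized counts in Ctrl and 396 and 409 in miR-128OE hearts (log2 fold change 0.92, SE 0.12, edgeR adjusted p = 0.000618). *Twsg1*, whose product binds BMPs together with chordin, had 1063 and 745 against 1409 and 1441 normalized counts (log2 fold change 0.65, SE 0.14). *Chrdl1*, a chordin-like BMP inhibitor, had 41.2 and 21.2 against 9.90 and 11.8 normalized counts (log2 fold change −1.56, SE 0.44), with 10 to 45 raw counts. Its call was lost in DESeq2's Wald test (adjusted p = 0.0855) and in edgeR without WH7 (log2 fold change −0.95, edgeR adjusted p = 0.256), WH9 (0.167) or WH10 (0.114).

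For the genes that store and activate latent TGF-β, 3 rose and 3 fell among 15 tested (median log2 fold change 0.0073). The called share was 40%, against 31.5% of all tested genes. *Furin*, a protease that cleaves the precursors of TGF-β and BMPs, had 1070 and 855 normalized counts in Ctrl and 1513 and 1358 in miR-128OE hearts (log2 fold change 0.57, SE 0.11). *Lrrc32*, which anchors latent TGF-β at the cell surface, had 355 and 304 against 444 and 519 (log2 fold change 0.54), and *Itgav*, the αv integrin subunit of TGF-β activating integrins, had 532 and 370 against 659 and 590 (0.45). The 3 that fell were *Itgb6*, an αv partner with 119 and 120 against 59.4 and 63.9 normalized counts (log2 fold change −0.95), *Bmp1*, a procollagen and chordin protease that is not a BMP by structure (−0.33), and *Ltbp3*, a latent TGF-β binding protein (−0.43). The calls of *Furin* and *Itgb6* were lost without WH9 (edgeR adjusted p = 0.0661 and 0.0645), that of *Lrrc32* without WH10 (0.107) and those of *Itgav*, *Bmp1* and *Ltbp3* without WH9 (0.25, 0.238 and 0.254) or WH10 (0.0937, 0.0658 and 0.0678). *Itgav* also lost its call without WH8 (log2 fold change 0.23, edgeR adjusted p = 0.112), with total counts (0.35, 0.113), with upper-quartile scaling (0.0768) and with a count minimum of 50 (0.0568). *Ltbp3* also lost its call without WH7 (−0.22, edgeR adjusted p = 0.102) and with the correction for GC and length (−0.34, 0.0623). The partners of 1 integrin receptor, *Itgav* and *Itgb6*, were thus called in opposite directions.

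Response genes of TGF-β rose in 4 of 17 cases and fell in 0 (median log2 fold change 0.30). The called share was 23.5%, against 31.5% of all tested genes. At an unadjusted p under 0.05 in edgeR 7 rose and 0 fell, and DESeq2's Wald test called 4 and 0. *Ctgf*, a matricellular growth factor gene, had 1073 and 967 normalized counts in Ctrl and 2088 and 2455 in miR-128OE hearts (log2 fold change 1.15, SE 0.10, edgeR adjusted p = 9.65e-05). *Acta2*, smooth muscle actin, had 7382 and 6815 against 12481 and 14753 normalized counts (log2 fold change 0.94, SE 0.10, edgeR adjusted p = 0.00029). *Smad7* and *Ldlrad4*, a TGF-β induced inhibitor of SMAD activation (log2 fold change 0.50), were the others. The matrix genes *Postn*, *Fn1*, *Col1a1*, *Col1a2* and *Col3a1* did not pass. *Acta2* is also a smooth muscle marker. Of the other 5 markers on that list, whose sums overlapped between the groups, *Myh11*, smooth muscle myosin, fell (log2 fold change −0.64, edgeR adjusted p = 0.0359), *Rgs5* rose (0.29, 0.0264), and *Tagln* (−0.37), *Pdgfrb* and *Cspg4* did not pass. The calls of *Ctgf* and *Acta2* were kept in each setting and with each library left out. The part of smooth muscle cells in the *Acta2* values was not tested.

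Of 11 tested BMP response genes, 3 were higher and 1 lower (36.4%, against 31.5% of all tested genes, median log2 fold change 0.04). Besides *Smad6* and *Smad7*, *Id1*, a dominant-negative helix-loop-helix factor gene induced by BMPs, had 955 and 834 normalized counts in Ctrl and 1254 and 1248 in miR-128OE hearts (log2 fold change 0.48, SE 0.09). Its relative *Id2* had 561 and 449 against 341 and 384 (log2 fold change −0.49, SE 0.13), and *Id3* had 1569 and 1326 against 1422 and 1564 and did not pass (0.04). The *Id2* call was lost without WH7 (log2 fold change −0.31, edgeR adjusted p = 0.0744), WH9 (0.187) or WH10 (0.0654), whereas that of *Id1* was kept with each library left out.

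**Figure D3:**
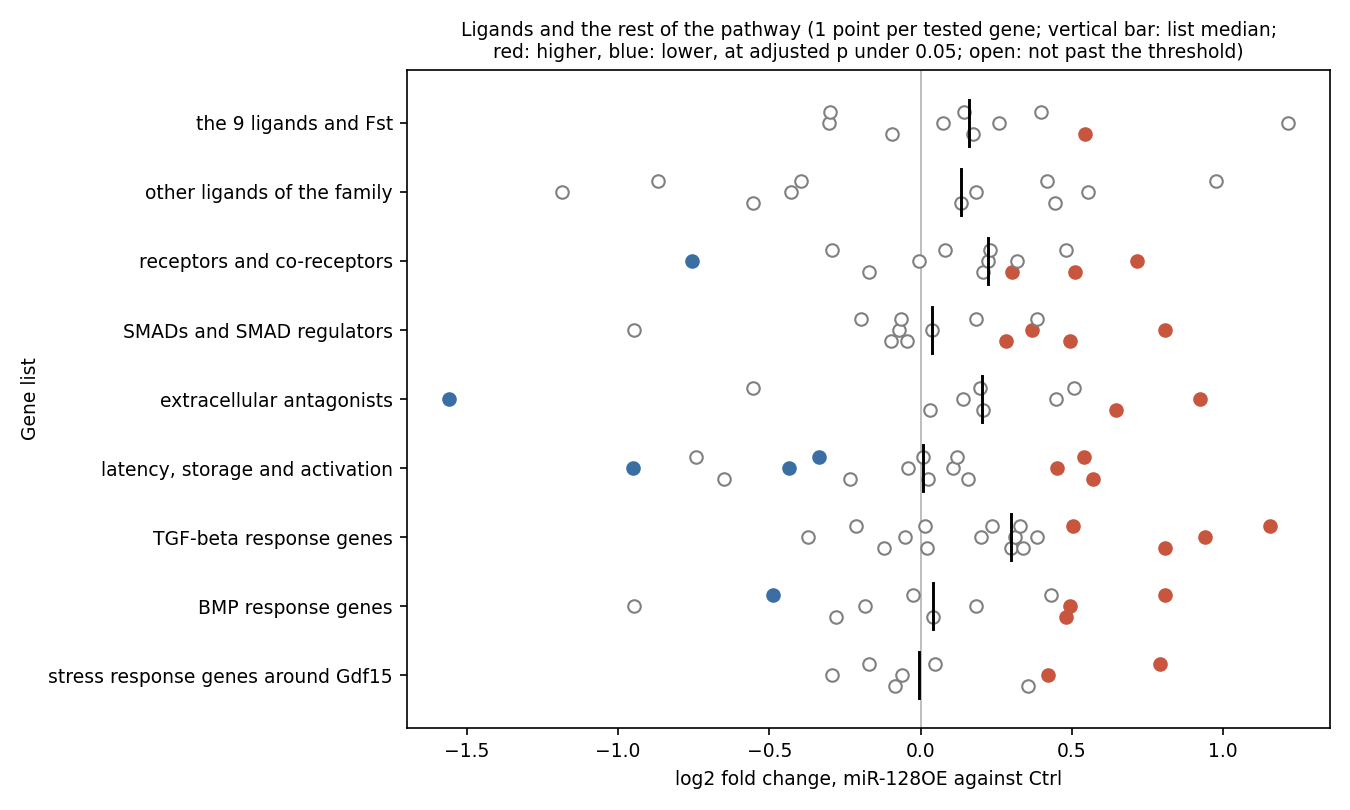
Log2 fold change of each tested gene in miR-128OE against Ctrl hearts, by list, with list medians as vertical bars and genes at an adjusted p under 0.05 filled in red (higher) or blue (lower). No gene among the other ligands is filled, and the blue points include *Acvr2b* at −0.76 and *Chrdl1* at −1.56.

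Seed matches of *miR-128* were found in pathway genes that rose, in genes that fell and in genes that did not pass. Of the 84 tested pathway genes, 34 held at least 1 match (40.5%, against 31.0% of all tested genes), with 3′UTRs of a median 1524 bases against 1199 bases. A match was present in 6 of the 16 higher genes (37.5%), in 2 of the 6 lower genes (33.3%) and in 26 of the 62 that did not pass (41.9%). The lower genes with a match were *Chrdl1*, with 2, and *Id2*, and their letters are shown here beside that of *Bmpr2*, a higher gene, with matches in capitals.
Chrdl1 site 1: atggtaactcCACTGTGctaaagaaac
Chrdl1 site 2: ggtataagtgCACTGTGgaaaattttg
Id2 site: tccggcctggACTGTGAtaccgttatt
Bmpr2 site: gagcagcattCACTGTGtgtgttgtag
They lie at chrX:143299174-143299180 and chrX:143297481-143297487 on the minus strand, at chr12:25094379-25094385 on the minus strand and at chr1:59871788-59871794 on the plus strand (GRCm38), each in the last exon. *Acvr2b*, *Itgb6*, *Bmp1* and *Ltbp3*, the other genes that fell, held neither motif in these 3′UTRs.

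The values of the 10 genes under other settings show which of them rest on 1 library. For *Tgfb3*, *Bmp7* and *Fst* the sign of the log2 fold change depended on which library was left out, with ranges of −0.27 to 0.14, −0.16 to 0.52 and −0.68 to 0.0057. With 1 library left out, *Bmp4* stayed between 0.22 and 0.33 and *Bmp2* between −0.38 and −0.21. Annotated genes on the opposite strand overlap *Tgfb2*, *Tgfb3*, *Bmp4*, *Bmp6* and *Fst*, and since the handling of strand was not stated, reads of the partners cannot be told apart for these 5 genes.

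**Figure D4:**
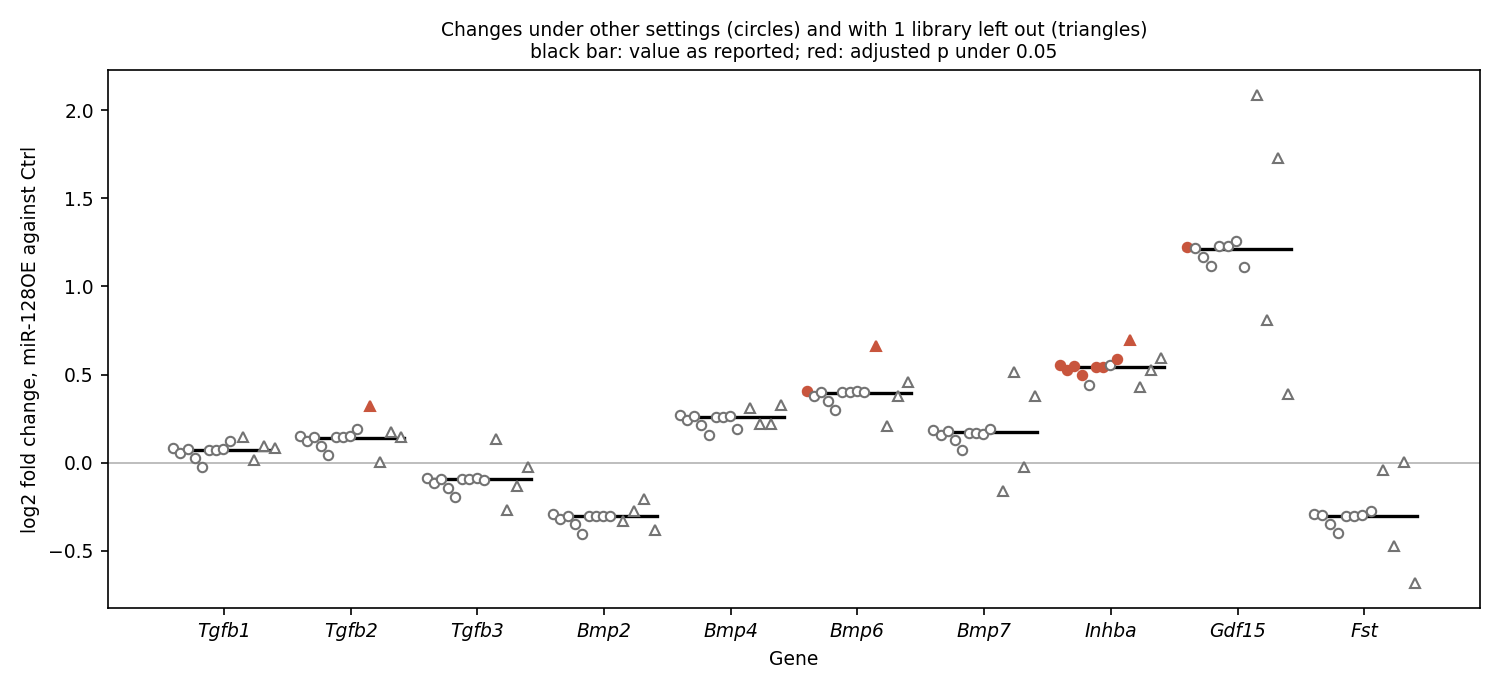
Log2 fold change of the 10 genes under other filters, scalings and tests (circles) and with 1 library left out (triangles), with the reported value as a black bar and values at an adjusted p under 0.05 in red. *Inhba* is red in most circles and in 1 triangle, and *Gdf15* is spread from 0.39 to 2.09 in the triangles.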

How the data were processed

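RNA-seq of P7 hearts was analyzed in 4 libraries, grouped as Ctrl and miR-128OE by their labels. The authors filtered reads for quality, mapped them with TopHat2 (mm10), used Bioconductor packages to count those on known genes, and deposited the raw counts. Gene models, strand and the treatment of reads that fit several genes are not given in the sources used here. The 10 genes and the pathway, activin and marker lists were chosen with earlier results of these data known.

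Entrez identifiers were matched to symbols for 24374 of 24454 genes through the RefSeq gene table. Counts were analyzed with edgeR 4.0.16 in R 4.3.3 (filterByExpr with a minimum count of 10, TMM factors of 0.957 to 1.04, quasi-likelihood test, two-sided), with Benjamini-Hochberg adjustment over 14266 genes and a threshold of 0.05. The test was run on simulated counts in which a small part of the genes changed, each by more than *Inhba* did here. That run does not show how well changes of the size of *Inhba* are recovered. A standard error is the absolute log2 fold change over the square root of F, and 95% intervals use the t distribution with 2 residual and 7.44 prior degrees of freedom. Exon lengths, 3′UTRs and the positions of seed matches came from GENCODE M21 (GRCm38, the assembly of mm10). Coordinates of whole genes came from the RefSeq gene table. A floor of 3 counts was fixed for each library and was used in no test. At library depths of 8096870 to 14359838 counts it equals 2.52 to 4.24 normalized counts. The floor covers counting error only, because PCR reads without molecular identifiers are not independent molecules. Summaries were made in Python 3.11.15 and scipy 1.17.1.

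The named genes were the 10 genes, up to 3 higher and 3 lower genes with the smallest p-values in each pathway list, and the receptors, SMADs and inhibitors of a called ligand. Other genes named were chosen after their values were seen. Alternatives were other filters, scalings and tests (DESeq2 1.42.0 among them), a loess correction (span 0.5) for the GC and length of genes (known for 95.67% of tested genes), 8-base seed matches alone, and each library left out.

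Of the marker lists, the summed normalized counts (WH7, WH8, then WH9, WH10) not given above were 21092, 21180, 22114 and 21200 for endothelial, 1596, 836.7, 1159 and 1145 for endocardial, 1011, 743.4, 805.9 and 805.8 for macrophage, 1800, 1035, 1198 and 1118 for epicardial, and 451.8, 472.1, 297.0 and 309.5 for Schwann cell markers.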

Additional observations from a re-analysis of the deposited data

How the results depend on the processing

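Under 9 other settings of filter, scaling and test, 83 of 88 log2 fold changes of the 10 genes kept their direction and their side of the threshold, as did 31 of 40 with 1 library left out. For the other named genes this held for 257 of 277 and 85 of 124 values. The number of the 10 genes called higher was 1, and it was 3 without a filter on low counts (*Inhba*, *Bmp6* and *Gdf15*), 0 with total-count scaling, 0 in DESeq2's Wald test and between 0 and 3 with 1 library left out. *Inhba* had 0.44 with total counts (adjusted p = 0.0682 from edgeR) and 0.55 in DESeq2's Wald test (adjusted p = 0.114), and 0.43 to 0.70 with 1 library left out (adjusted p from 0.0137 to 0.169). Total-count scaling moved the median of all tested genes to −0.11, so the 0.44 of *Inhba* is to be read against that median, and it turned *Tgfb1* to −0.0263. With 1 library left out, log2 fold changes ranged from −0.27 to 0.14 for *Tgfb3*, −0.16 to 0.52 for *Bmp7*, −0.68 to 0.0057 for *Fst*, −0.37 to 0.40 for *Acvr1b*, −0.14 to 0.0670 for *Smad2* and −0.16 to 1.94 for *Fstl3*. *Acvr1b* was 0.0047 without a filter on low counts and 0.0262 with the GC and length offset, which also turned *Smad2* to 0.0428. Pathway genes numbered 26 higher without a filter and 7 to 35 with 1 library left out, and 10 lower with total counts and 1 to 14 with 1 library left out. Over all genes DESeq2's Wald test called 1403 lower, and leaving out 1 library gave 897 to 2654 higher and 667 to 2384 lower. In each fit with 1 library left out, the lone library of its group is assumed to vary like the others. Counts over all genes were lowest without WH9 or WH10, and without WH7 or WH8 they stayed closer to those with every library. With 8-base matches alone, 0 of the 10 genes held a seed match. *Gdf15* and *Fst* fell under the count minimum of 50 and gave no value there. The causes of these shifts were not tested. No paired analysis was possible because the labels give the libraries no replicate numbers that groups share.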

Other observations

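Ratios between genes within a library, chosen after their values were seen, do not depend on the scaling of libraries. The ratio of *Inhba* to *Inhbb* normalized counts was 3.68 and 3.75 in Ctrl and 7.12 and 7.41 in miR-128OE hearts, without overlap, and its mean log2 value was higher by 0.97 in miR-128OE hearts. The ratio of *Inhba* to its antagonist *Fst* was 3.18 and 3.57 in Ctrl and 8.09 and 4.76 in miR-128OE hearts, a log2 difference of 0.88. For both ratios the two-sided exact permutation p was 0.333, the smallest that 2 against 2 libraries can give. Any ratio without overlap gives this value, so the test cannot decide on ratios chosen this way. Their denominators rest on few reads, with 20 to 38 raw counts for *Inhbb* and 21 to 44 for *Fst*, and neither gene passed. The ratio of *Inhba* to *Inha* overlapped (0.693 and 0.743 against 0.832 and 0.707), and that of *Bmp6* to *Bmp2* was 2.73 and 1.91 against 4.19 and 3.51.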
